A study of Mus musculus with 24 samples.

Results

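A set of 10 genes of insulin and IGF1 receptor signalling were followed in brown adipose tissue (BAT): the receptors Insr and Igf1r, the docking proteins Irs1 and Irs2, the PI3K subunits Pik3r1 and Pik3ca, the kinases Akt1 and Akt2, and the transcription factors Foxo1 and Foxo3. They were chosen by name, as the rows of the count table whose Ensembl identifier maps to these symbols. Of the 10 genes, 9 were found among the 12615 genes of the table, and all 9 passed the filter on low counts that left 12485 genes for testing. Irs1 was not analysed here.

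Insulin binds its receptor tyrosine kinase, which phosphorylates the IRS docking proteins. These recruit PI3K, whose lipid product activates AKT, and AKT keeps the FOXO factors out of the nucleus. In liver, Irs2 is a textbook target of the FOXO factors and its mRNA falls when insulin acts, so its transcript is often read together with that of Foxo1. In brown adipocytes the same cascade drives glucose uptake and the synthesis of fatty acids that are burned in the cold.

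The data are 24 libraries of brown fat RNA in 4 groups of 6 mice. Every mouse carried floxed alleles of TBLR1 (gene Tbl1xr1) and TBL1 (gene Tbl1x), subunits of a nuclear corepressor complex. BATdKO mice also carried Ucp1CreERT2, a tamoxifen-dependent recombinase under the Ucp1 promoter, which limits recombination to cells that use this promoter, and Cre- controls lacked it. Both genotypes were born and raised at 22°C and entered the temperature protocol 3 weeks after tamoxifen. One set of each genotype was moved directly to 30°C for 4 days, and the other reached 8°C through single days at 18, 16 and 12°C and stayed there for 6 days. Cold below means the whole 8°C protocol against the 30°C one, since time and temperature cannot be told apart. Library identifiers also ran in separate blocks for 30°C and 8°C, and whether the blocks were processed apart is not stated. The labels describe females and give 6 days at 8°C, whereas the published methods give 3 days and the published legend gives males. The labels put tamoxifen at an age of 5 years, which no mouse reaches, and the published methods at 5 weeks, on a C57BL6/N background. Libraries held a single tag from the 3′ end of each transcript, so counts do not grow with transcript length, and levels are given as CPM, the count of a gene scaled to the TMM-normalized library size.

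Totals ranged from 699703 to 11527643 counts per library. Mouse m4 of the Cre- 30°C group was the shallowest, with 15 counts of Irs2. Liver transcripts were abundant in every library: all 8 hepatocyte markers were tested, their summed level was 27626 to 40088 CPM with overlapping ranges in the 4 groups, and albumin (Alb) alone reached 5686 to 14390 CPM. All 11 brown adipocyte markers were tested too, with sums of 740 to 6179 CPM, and Ucp1, the uncoupling protein of these cells, was 28.9 to 548 CPM at 30°C in Cre- and 968 to 2080 CPM at 8°C. The sum of 12 skeletal muscle genes ran from 0.978 to 8428 CPM. Sums of the macrophage (119 to 190 CPM) and stromal progenitor lists (155 to 431 CPM) overlapped between the groups compared, although without mouse m6 at 30°C the macrophage sums of BATdKO did not overlap between temperatures (155 to 190 CPM at 30°C and 136 to 152 CPM at 8°C). Endothelial sums differed with temperature in Cre-, without overlap (131 to 155 CPM at 30°C and 159 to 215 CPM at 8°C), and overlapped in BATdKO (133 to 163 and 155 to 216 CPM). Erythroid medians were 3596 and 5274 CPM at 30°C and 8°C in Cre- and 3520 and 5305 CPM in BATdKO, with ranges that overlapped in Cre- and, with m6 at 30°C, in BATdKO (without it 3360 to 3792 and 4313 to 5921 CPM). Of the remaining lists, 1 of 5 pancreas markers was tested (Cela1) and 0 of 4 B cell markers were. The female-specific Xist had at least 26 counts and the Y-linked Ddx3y at least 21 counts in all 24 libraries, so that no library matched 1 sex alone. The part of liver, muscle or pooled material in the results below was not tested, and in bulk tissue fewer cells of a type and less RNA per cell cannot be told apart.

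Both targeted genes were higher, not lower, under the BATdKO label. In the 8°C groups Tbl1xr1 was 18.2 to 24.6 CPM in the libraries labelled Cre- and 33.7 to 44.3 CPM in those labelled BATdKO, a log2 difference of 0.92 ± 0.17 (SE; edgeR adjusted p = 0.00348). Tbl1x differed by 0.39 ± 0.10 (edgeR adjusted p = 0.0633). These levels go against the labels. Which exons are floxed is not given in the sources used here, and a 3′ tag can miss a deletion elsewhere in a gene, so whether the levels bear on the deletion was not tested. The groups are named below as they are labelled. At 30°C a pair of libraries stood apart from their groups. Mouse m6 labelled Cre- had 38.6 CPM of Tbl1xr1 and a brown adipocyte sum of 4476 CPM, where the other 5 reached 24.6 and 2342 CPM, and mouse m6 labelled BATdKO had 17.0 and 1282 CPM, where the other 5 were at least 29.8 and 2342 CPM. In Tbl1xr1 each of the pair thus lay in the range of the other genotype. Whether these 2 libraries are labelled correctly is in doubt, which touches every genotype value at 30°C, and results that rest on the pair are given with and without it.

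The promoter of Irs2 is shown because Irs2 carried the largest difference among the 9 genes, and that of Irs1, its closest relative, is shown for comparison. Both are the 250 bases before the RefSeq start site, in GRCm38.p6. Irs2 lies on the minus strand at chr8:11008930-11009179 and Irs1 on the minus strand at chr1:82291440-82291689. Capitals mark CACGTG (the E-box) and TTGTTTTG, which is CAAAACAA, a core of the insulin response element, read from the other strand.
Irs2: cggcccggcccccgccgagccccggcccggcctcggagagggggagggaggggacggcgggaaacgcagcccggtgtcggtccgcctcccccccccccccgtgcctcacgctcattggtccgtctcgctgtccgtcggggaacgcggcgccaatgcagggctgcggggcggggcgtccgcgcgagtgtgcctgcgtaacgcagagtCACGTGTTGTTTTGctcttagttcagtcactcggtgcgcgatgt
Irs1: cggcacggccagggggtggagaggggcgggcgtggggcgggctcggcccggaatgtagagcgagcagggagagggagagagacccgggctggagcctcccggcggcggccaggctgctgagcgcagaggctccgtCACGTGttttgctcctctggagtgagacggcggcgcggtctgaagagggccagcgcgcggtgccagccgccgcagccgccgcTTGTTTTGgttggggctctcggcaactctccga

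In Irs2 the E-box began 44 bases before the start site and ran directly into TTGTTTTG, which began 38 bases before it. In Irs1 the same letters stood apart, beginning 115 and 33 bases before the start site. Over both strands, CACGTG was present in 6.02% of the 32851 RefSeq promoters of this length and CAAAACAA in 2.21%, and 33 promoters (0.1%) held both. Sequences were matched for 9 of the 10 genes, all but Insr. Neither motif was found in the 250 bases of Igf1r, Pik3r1, Pik3ca, Akt1, Akt2, Foxo1 or Foxo3. GTAAACA, a FOXO motif, was found in Akt1 alone of the 9 and in 3.17% of all promoters, TGACGTCA, the cAMP response element, in none of the 9 and in 1.55%, and TGACG, which TGACGTCA contains, in Irs1, Pik3r1, Akt2 and Foxo3 and in 17.8%. These are matches of letters and not shown to be bound. The gene model in GENCODE vM21 starts 471 bases downstream of the RefSeq start for Irs2 and 23 bases downstream for Irs1.

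All 9 genes were expressed in every library, and per transcript the kinase Akt2 was the most abundant, with a mean of 125 CPM over the 24 libraries. Pik3r1, the regulatory subunit of PI3K, followed at 76.5 CPM. Foxo1 (36.7 CPM), Insr (30.6 CPM), Akt1 (29.5 CPM) and Irs2 (24.9 CPM) formed the middle, and Pik3ca (17.4 CPM), Foxo3 (16.2 CPM) and Igf1r (6.90 CPM) the lower end. Akt2 stood above 93.9% of tested genes and Igf1r above 40.5%.

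**Figure D1:**
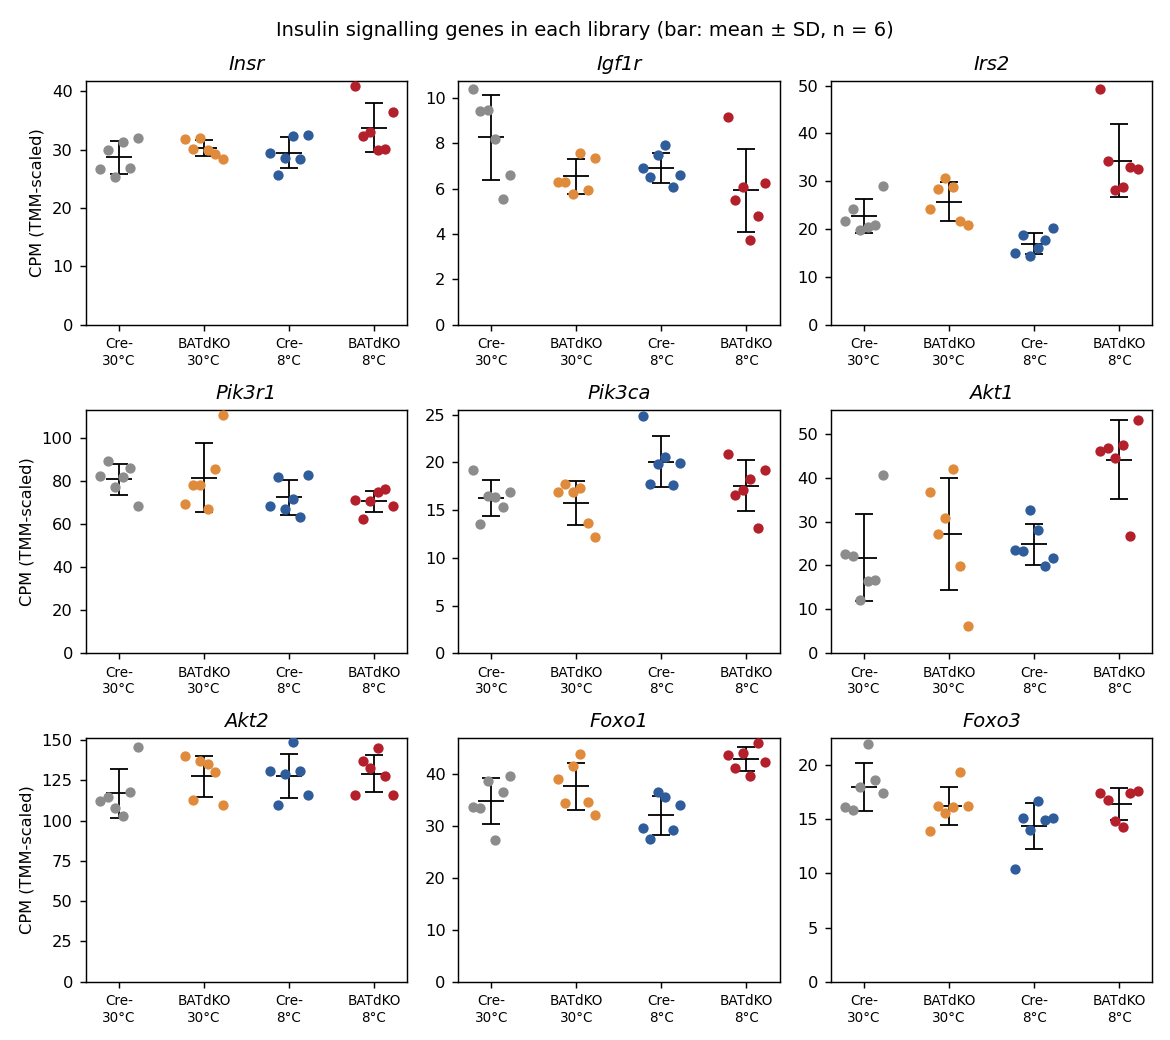
CPM (vertical axes, from 0) of the 9 insulin signalling genes in each of the 24 libraries, 1 panel per gene and 1 column of 6 points per group, with bars at the mean ± SD. Irs2 in BATdKO at 8°C (28.2 to 49.2 CPM) lies wholly above Cre- at 8°C (14.4 to 20.2 CPM), and Akt1 is spread widely at 30°C.

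The comparison of genotypes at 8°C asked how libraries labelled BATdKO differed from Cre- ones in the cold-adapted tissue. Of the 9 genes, 2 were called and both were higher in the libraries labelled BATdKO: Irs2, at 1.98-fold, and Foxo1. Over all 12485 genes 1.82% were called in this comparison (0.697% higher), at an adjusted p under 0.1. The median log2 difference was 0.18 over the 9 genes and 0.00 over all genes. Groups did not overlap for Irs2 and Foxo1, as for 1.95% of all tested genes. The same comparison at 30°C called 0 of the 9 and 0 of all genes (0%) by edgeR, with 1 of the 9 (Igf1r) and 1303 of all genes (10.4%) at an unadjusted p under 0.05. By DESeq2 it called 0 of the 9 and 92 of all. Without both m6 libraries at 30°C, a setting chosen with the values in view, edgeR called 1 of the 9 (Akt1) and 500 of all, and without a single library it called 0 to 369 of all, the most without m6 of Cre- at 30°C.

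In the cold comparisons 1 of the 9 genes was called in each genotype, in both cases Irs2, and in opposite directions. It fell in Cre-, where 9.15% of all genes were called (3.59% lower), and rose in BATdKO, where 7.07% were (3.76% higher). The interaction of genotype and temperature called 0 of the 9 (0.0961% of all genes by edgeR), with Irs2 and Foxo1, 2 of the 9, and 8.05% of all genes at an unadjusted p under 0.05, and DESeq2 called 1, Irs2. The libraries of Cre- at 8°C enter both the genotype comparison at 8°C and the cold comparison in Cre-, so these do not stand apart from each other.

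**Figure D2:**
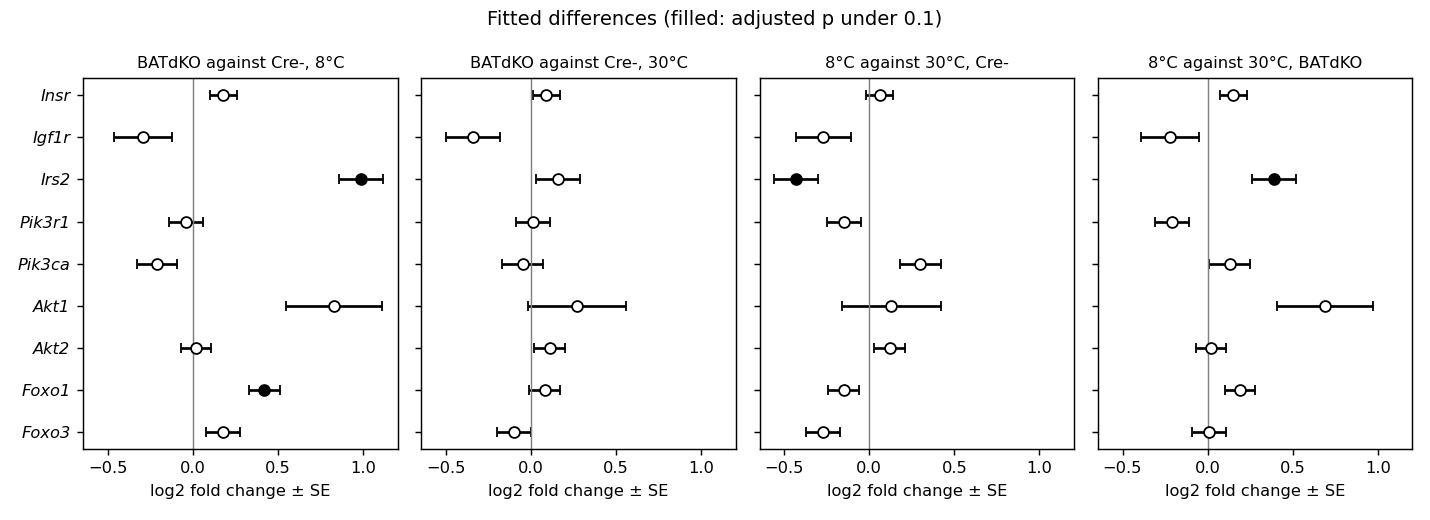
Fitted log2 fold changes (horizontal axes; points, with bars at ± SE) of the 9 genes in 4 comparisons, with filled points at an adjusted p under 0.1. Irs2 (0.99) and Foxo1 (0.42) are filled at 8°C between genotypes, Irs2 is filled to the left (-0.43) in Cre- and to the right (0.39) in BATdKO in the cold, and no point is filled between genotypes at 30°C.

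The insulin receptor gene Insr (chr8:3122061-3279617, minus strand) passed the test in no comparison. It was 25.3 to 32.1 CPM (median 28.4) in Cre- at 30°C and 28.5 to 32.1 CPM (median 30.1) in BATdKO at 30°C. At 8°C it was 25.6 to 32.6 CPM (median 29.0) in Cre- and 30.0 to 41.0 CPM (median 32.7) in BATdKO. Ranges overlapped in every comparison, although 3 of the 6 BATdKO libraries at 8°C lay above all Cre- ones. The genotype difference at 8°C was 0.18 ± 0.08 on the log2 scale and did not pass (edgeR adjusted p = 0.488).

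Igf1r (chr7:67952827-68233668, plus strand), the receptor for IGF1, had few counts, from 6 to 132 per library. Medians were 8.80 CPM in Cre- and 6.28 CPM in BATdKO at 30°C, and 6.74 and 5.78 CPM at 8°C. Fitted differences between genotypes were -0.34 ± 0.16 at 30°C (edgeR adjusted p = 0.457) and -0.29 ± 0.17 at 8°C (edgeR adjusted p = 0.656), with overlapping ranges at both temperatures. Where Insr was above 0 in the genotype comparisons, Igf1r was below 0, and neither passed the test.

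Irs2 (chr8:10984681-11008458, minus strand) encodes the docking protein that couples the insulin receptor to PI3K. Its exons overlap those of 9530052E02Rik on the other strand, and whether reads were counted by strand is not stated, so reads of the 2 genes cannot be told apart. At 30°C it was 19.9 to 29.1 CPM (median 21.2; mean 22.7 ± 3.51 SD, n = 6) in Cre- and 20.9 to 30.6 CPM (median 26.2; mean 25.7 ± 4.06) in BATdKO. At 8°C it was 14.4 to 20.2 CPM (median 16.9; mean 17.0 ± 2.28) in Cre- and 28.2 to 49.2 CPM (median 32.7; mean 34.3 ± 7.70) in BATdKO. In order, the groups ran from Cre- at 8°C through Cre- at 30°C and BATdKO at 30°C to BATdKO at 8°C. The difference between the middle 2 did not pass (0.16 ± 0.13, edgeR adjusted p = 0.722; 0.31 ± 0.13 and adjusted p = 0.269 without both m6 libraries), and the ranges at 8°C left a gap between the genotypes.

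The difference in Irs2 at 8°C was 0.99 ± 0.13 on the log2 scale, a fold of 1.98 (edgeR adjusted p = 5.21e-05). All 6 BATdKO libraries exceeded all 6 Cre- libraries, and an exact two-sided permutation test of log2 CPM gave p = 0.00216, the smallest that 6 against 6 mice allow. The highest library, mouse m1 of BATdKO at 8°C with 49.2 CPM, was also the second shallowest, and without it the difference was 0.88. In 33 of 33 other settings the call was kept, with adjusted p from 7.03e-10 to 0.000319. Brown adipocyte sums overlapped between these groups (2765 to 5140 CPM in Cre- and 3208 to 6179 CPM in BATdKO), and with the summed level of Adipoq, Fabp4 and Plin1 as a covariate, a fit chosen with the values in view, the difference was 0.91 ± 0.12 (edgeR adjusted p = 1.36e-05). Hepatocyte sums overlapped as well (30816 to 37089 and 31668 to 40088 CPM). Muscle sums went with the genotype label, with medians of 493 CPM (3.26 to 1547 CPM) in Cre- and 52.0 CPM (0.978 to 154 CPM) in BATdKO. In Cre- at 8°C the libraries with the lowest (3.26 CPM) and the highest (1547 CPM) muscle sums had 14.4 and 17.7 CPM of Irs2. The part of muscle in the difference was not tested.

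Cold moved Irs2 by -0.43 ± 0.13 in Cre- (edgeR adjusted p = 0.0464), with 5 of 6 cold libraries under all warm ones and an exact permutation p of 0.00433. The call was lost without mouse m6 of Cre- at 30°C (adjusted p = 0.128) and without m1, m3 or m4 of Cre- at 8°C (0.107, 0.101 and 0.104), while without both m6 libraries at 30°C the value was -0.35 (adjusted p = 0.0896). In BATdKO it moved by 0.39 ± 0.13 (edgeR adjusted p = 0.0798), with 4 of 6 cold libraries above all warm ones and an exact permutation p of 0.0195. This call did not hold without both m6 libraries (0.32, adjusted p = 0.147), without any 1 of m1, m2, m5 and m6 of BATdKO at either temperature (adjusted p = 0.103 to 0.197), or with total-count scaling (0.20, adjusted p = 0.238). Brown adipocyte sums had higher medians in the cold in both genotypes, 3981 against 1546 CPM in Cre- and 4668 against 3341 CPM in BATdKO. These sums include Ucp1, which itself rose with cold, with medians of 1520 against 130 CPM in Cre- and 1770 against 314 CPM in BATdKO. Ppargc1a, on the list too, rose by 1.27 in Cre- and 0.95 in BATdKO (edgeR adjusted p = 3.71e-06 and 0.00023). Not every marker of the list rose. Adipoq in BATdKO was lower in the cold, without overlap (80.4 to 142 against 185 to 268 CPM), and ranges of Fabp4 and Plin1 overlapped between temperatures in both genotypes. The endothelial and erythroid sums were higher in the cold as well, as given above, and the part of these markers in the cold responses was not tested beyond the adipocyte covariate, with which Irs2 moved by -0.50 in Cre- and 0.36 in BATdKO (edgeR adjusted p = 0.00576 and 0.0414). The Cre- 8°C libraries with the largest brown adipocyte sums, m3 and m1, had the least Irs2 (14.4 and 14.9 CPM). The other groups ran differently. In BATdKO at 8°C the library with the largest sum, m1 (6179 CPM), had the most Irs2 (49.2 CPM). At 30°C m6 had the largest sum and the most Irs2 in Cre- (4476 and 29.1 CPM), and the smallest sum and the least Irs2 in BATdKO (1282 and 20.9 CPM).

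The difference between the 2 cold responses, the interaction, was 0.82 ± 0.18 for Irs2 (edgeR adjusted p = 0.105), which missed the threshold of 0.1. It passed in 14 of 32 other settings, among them DESeq2 (adjusted p = 0.0166) and total-count scaling (0.0438), and without both m6 libraries it was 0.67 (adjusted p = 0.133). Of the 14, 8 left out a single library: m1, m3 or m4 of Cre- at 30°C, m3 or m4 of BATdKO at 30°C, m2 or m6 of Cre- at 8°C, or m3 of BATdKO at 8°C (adjusted p = 0.0724 to 0.0957). Its sign was positive in all 32.

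**Figure D3:**
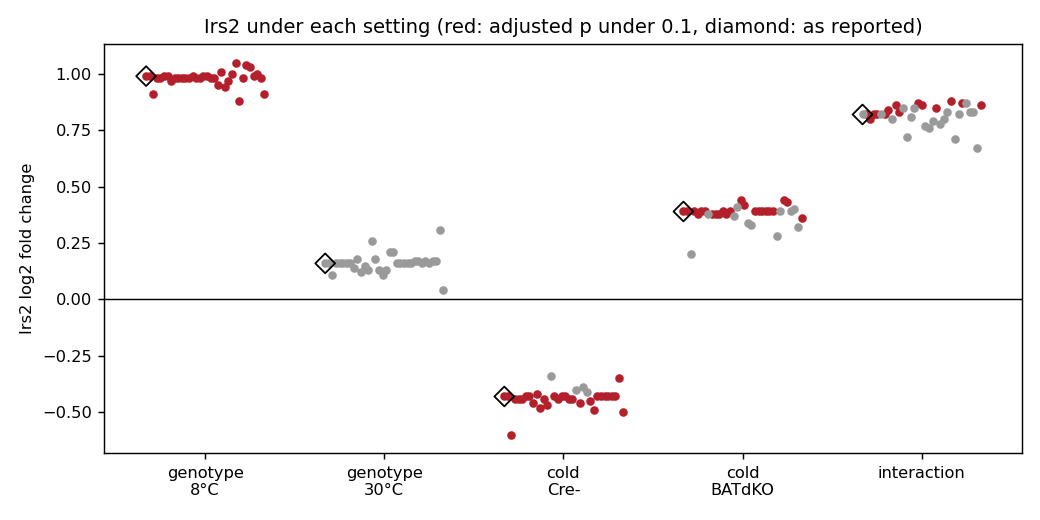
Log2 fold change of Irs2 (vertical axis) in 5 comparisons, with the reported value as a diamond and a point for the reported and each other setting (RLE, total counts, DESeq2, filters, robust dispersion, fewer groups, each library left out, both m6 libraries left out, an adipocyte covariate), red where the adjusted p is under 0.1. The genotype difference at 8°C stays between 0.88 and 1.05 and red throughout, whereas both cold responses and the interaction hold red and grey points.

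The PI3K subunits did not pass the test in any of the 5 comparisons. Pik3r1 (chr13:101680563-101768217, minus strand), which binds phosphorylated IRS proteins, was 62.5 to 111 CPM over all libraries, with group medians of 82.2 and 78.5 CPM at 30°C (Cre- and BATdKO) and 70.2 and 71.1 CPM at 8°C. Its genotype differences were -0.04 ± 0.10 at 8°C and 0.01 ± 0.10 at 30°C, the latter -0.14 ± 0.09 without both m6 libraries. Pik3ca (chr3:32397671-32468486, plus strand), the catalytic subunit, had medians of 16.4 and 16.9 CPM at 30°C and of 19.8 and 17.7 CPM at 8°C. Cold moved it by 0.30 ± 0.12 in Cre- (edgeR adjusted p = 0.141), with 4 of 6 cold libraries above all warm ones. Without mouse m1 of Cre- at 30°C that value was 0.36 and passed (adjusted p = 0.088).

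Akt2 (chr7:27591552-27640826, plus strand), the AKT kinase best known for insulin-driven glucose uptake, had the smallest fitted difference of the 9 between genotypes at 8°C, and its sign changed with total-count scaling (-0.04). It was 110 to 149 CPM (median 130) in Cre- and 116 to 145 CPM (median 131) in BATdKO at 8°C, with a difference of 0.02 ± 0.09 (edgeR adjusted p = 0.995). At 30°C it was 103 to 146 CPM (median 113) in Cre- and 110 to 140 CPM (median 132) in BATdKO. The groups covered nearly the same range at both temperatures.

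Akt1 (chr12:112653821-112674884, minus strand), its relative tied to growth and survival, was widely spread at 30°C. There it was 12.2 to 40.6 CPM (median 19.5) in Cre- and 6.31 to 42.1 CPM (median 29.0) in BATdKO. At 8°C it was 19.8 to 32.6 CPM (median 23.4) in Cre- and 26.7 to 53.2 CPM (median 46.4) in BATdKO. The highest Cre- and the lowest BATdKO library at 30°C were the m6 libraries, and at 8°C all BATdKO libraries but m5 lay above every Cre- one.

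The genotype difference of Akt1 at 8°C was 0.83 ± 0.28 and missed the threshold (edgeR adjusted p = 0.196). The same size passed where the 30°C groups, or only the m6 libraries in them, did not enter the estimate of spread: 0.82 ± 0.14 with the 8°C groups alone (adjusted p = 0.000984) and 0.82 ± 0.17 without both m6 libraries (adjusted p = 0.00677), the latter chosen with the values in view. Without m6 of BATdKO at 30°C alone it passed as well (adjusted p = 0.0443). At 30°C the difference was 0.27 ± 0.29 with all libraries (adjusted p = 0.813) and 0.77 ± 0.20 without both m6 libraries (adjusted p = 0.0312). With the adipocyte covariate the values were 0.51 at 8°C (adjusted p = 0.0195) and -0.30 at 30°C (adjusted p = 0.248). Cold moved Akt1 by 0.69 ± 0.28 in BATdKO (edgeR adjusted p = 0.184), a value that passed without m4 of BATdKO at 30°C (0.87, adjusted p = 0.0772) and with the covariate (0.67, adjusted p = 0.000414). The m6 libraries held the highest Cre- and the lowest BATdKO brown adipocyte sum at 30°C, 4476 and 1282 CPM. The part of the brown adipocyte content in the Akt1 difference was not tested beyond this covariate.

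**Figure D4:**
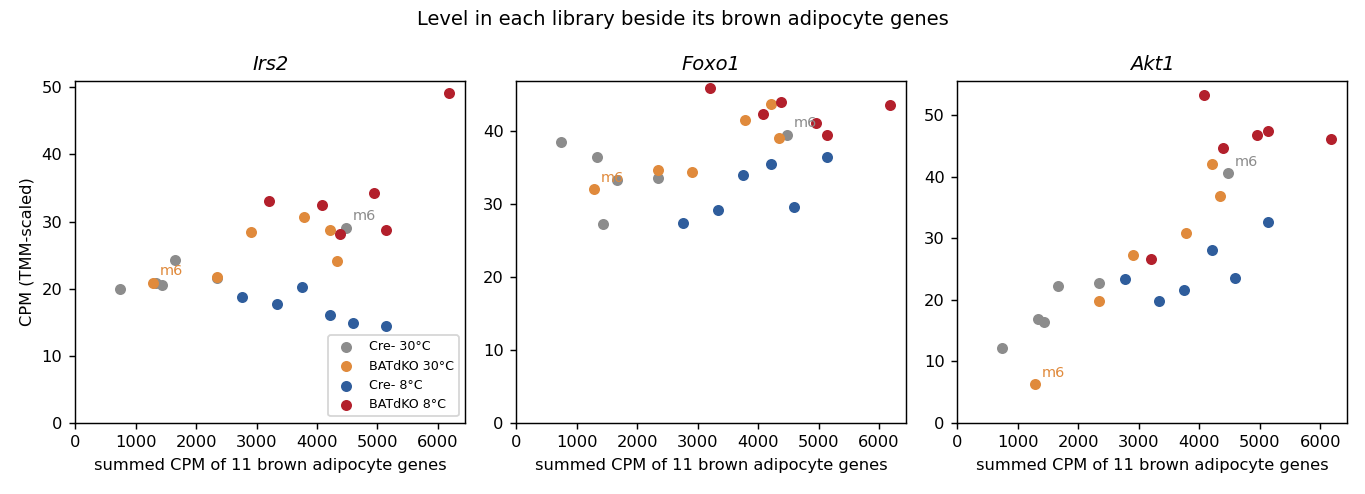
CPM of Irs2, Foxo1 and Akt1 (vertical axes) against the summed CPM of 11 brown adipocyte genes (horizontal axes), 1 point per library, coloured by group, with the m6 libraries at 30°C labelled. Irs2 in Cre- at 8°C stays at or under 20.2 CPM across sums of 2765 to 5140 CPM, and in BATdKO at 8°C it is highest (49.2 CPM) at the largest sum (6179 CPM). The highest and lowest Akt1 values at 30°C go with high and low sums.

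Foxo1 (chr3:52268336-52353221, plus strand), the FOXO factor that AKT inactivates in insulin-responsive tissues, was the other gene called at 8°C. It was 27.3 to 39.5 CPM (median 35.0) in Cre- and 32.0 to 43.7 CPM (median 36.8) in BATdKO at 30°C. At 8°C it was 27.4 to 36.4 CPM (median 31.7; mean 32.0 ± 3.74 SD, n = 6) in Cre- and 39.5 to 45.9 CPM (median 42.9; mean 42.7 ± 2.29) in BATdKO. The 8°C groups did not overlap, while those at 30°C did.

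At 8°C the genotype difference of Foxo1 was 0.42 ± 0.09, a fold of 1.33 (edgeR adjusted p = 0.0127), and it passed in every setting tried, with 0.38 to 0.45 when single libraries were left out and 0.39 with the adipocyte covariate. At 30°C it was 0.08 ± 0.09 (edgeR adjusted p = 0.841), and 0.15 ± 0.09 without both m6 libraries (adjusted p = 0.5). With cold its values were -0.15 ± 0.09 in Cre- (edgeR adjusted p = 0.388) and 0.19 ± 0.09 in BATdKO (adjusted p = 0.279), neither past the threshold, and the interaction was 0.34 ± 0.13 (edgeR adjusted p = 0.495). Exons of Foxo1 overlap Gm20402 on the other strand, with the same limit as for Irs2.

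Foxo3 (chr10:42181841-42276755, minus strand), its relative, passed in no comparison. It was 15.8 to 21.9 CPM (median 17.7) in Cre- and 13.9 to 19.3 CPM (median 16.2) in BATdKO at 30°C. At 8°C it was 10.4 to 16.7 CPM (median 15.0) in Cre- and 14.3 to 17.6 CPM (median 17.1) in BATdKO. In Cre-, 5 of 6 cold libraries lay under all warm ones, with a value of -0.27 ± 0.10 (edgeR adjusted p = 0.12), and without m4 of Cre- at 8°C it was -0.32 and passed (adjusted p = 0.0869).

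Shares within pairs of related genes, taken as the percent of their summed counts, describe the same pattern without scaling between libraries. Akt2 made up 84.2% of Akt2 and Akt1 counts at the median in Cre- at 8°C (79.9 to 86.9%) and 74.7% in BATdKO at 8°C (68.6 to 82.7%), and the ranges overlapped. Its highest share, 94.6% (Wilson 95% interval 92.8 to 96.0%), was in m6 of BATdKO at 30°C. Foxo1 made up 68.6% of Foxo1 and Foxo3 counts in Cre- and 72.0% in BATdKO at 8°C. Insr made up 77.7 to 85.4% of both receptors at the group medians, and Pik3r1 78.1 to 82.9% of both subunits. Such intervals cover counting error only.

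The other genes of the pathway were followed in 8 lists. Of 96 genes tested, 7 (7.29%) were called between genotypes at 8°C, 3 higher and 4 lower, beside 1.82% of all genes. Cold called 17 of the 96 (17.7%, beside 9.15% of all genes) in Cre- and 12 (12.5%, beside 7.07%) in BATdKO, and genotype at 30°C and the interaction called 0 by edgeR (10 and 19 at an unadjusted p under 0.05, 1 and 0 by DESeq2). Of 36 calls in these lists, the 13 with an adjusted p above 0.04 were each lost without at least 1 single library. The medians of the 96 lay between -0.06 and 0.05 in all 5 comparisons.

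Upstream of PI3K, 2 of 8 adaptors (25%) were called between genotypes at 8°C, beside 1.82% of all genes. Cold in Cre- called 1 of 9 ligands and binding proteins (11.1%), 1 of 8 adaptors (12.5%) and 2 of 8 receptor brakes (25%), beside 9.15%. Among the 9 tested ligands and binding proteins, only Igfals, the liver-made subunit that holds IGFs in the circulation, was called, at -0.29 ± 0.10 with cold in Cre- (edgeR adjusted p = 0.0956), and DESeq2 did not call it (0.102). Of the adaptors, Sh2b2, which binds the activated insulin receptor, rose with cold in Cre- by 0.97 ± 0.18 (26.2 ± 7.94 to 52.3 ± 10.0 CPM, mean ± SD, n = 6; edgeR adjusted p = 0.000679). At 8°C it was lower under the BATdKO label by a log2 value of -0.74 ± 0.18 (31.3 ± 4.78 CPM, adjusted p = 0.0302). Gab2, another docking protein, was lower there as well, at -0.73 ± 0.18 (4.58 against 7.34 CPM, edgeR adjusted p = 0.0489). These adaptors went the other way from Irs2 at 8°C. The list of receptor brakes includes Trib3, a pseudokinase that binds AKT, downstream of the receptor. Trib3 fell with cold in both genotypes, by -0.72 in Cre- and -0.89 in BATdKO (edgeR adjusted p = 0.00932 and 0.0018). Enpp1, a membrane enzyme that hinders the receptor, fell in Cre- (-0.50, adjusted p = 0.0769).

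Around PI3K and AKT, 1 of 11 PI3K subunits and phosphatases was called with cold in Cre- (9.09%, beside 9.15% of all genes): Pik3cd, a catalytic subunit of leukocytes, at -0.81 ± 0.25 (edgeR adjusted p = 0.0493), from a mean of 3.11 to 1.88 CPM. A list of 17 genes around AKT activation and the mTOR complexes held inhibitors as well as activators. Of these, Mtor (0.82 ± 0.13, edgeR adjusted p = 0.000171) and Pdpk1, the kinase that activates AKT (0.32 ± 0.08, adjusted p = 0.0154), rose with cold in Cre- (11.8% called). Phlpp1, a phosphatase that removes an activating phosphate of AKT, had more CPM in libraries labelled BATdKO at 8°C, by 0.62 ± 0.16 (edgeR adjusted p = 0.0494). It was the 1 of the same 17 genes called there (5.88%, beside 1.82% of all genes). Foxo4 was the 1 of 11 other AKT effectors called with cold in BATdKO (9.09%, beside 7.07% of all genes), at -0.42 (edgeR adjusted p = 0.0779).

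Of 21 tested FOXO targets, 1 (4.76%, beside 1.82% of all genes) was called between genotypes at 8°C, and cold called 3 in Cre- (14.3%, beside 9.15%) and 4 in BATdKO (19.0%, beside 7.07%). Bcl6, a transcriptional repressor, was 24.5 ± 5.00 CPM in Cre- and 40.6 ± 4.84 CPM in BATdKO (0.71 ± 0.13, edgeR adjusted p = 0.00328), and it also rose with cold in BATdKO by 0.43 (adjusted p = 0.0541). Like Irs2 and Foxo1 it was higher under the BATdKO label, while the median of the list was -0.02. Higher with cold in Cre- were Pdk4, the kinase that shuts off pyruvate oxidation (1.62 ± 0.38, adjusted p = 0.00766), Sod2, the mitochondrial superoxide dismutase (0.65, 0.0319), and Bnip3, a mitophagy receptor (0.42, 0.0872). In BATdKO, cold raised Sod2 (0.66, adjusted p = 0.0348), Bcl6 and G6pc, the glucose 6-phosphatase of liver (0.25, 0.0629), and lowered Sesn1, a stress-induced inhibitor of mTORC1 (-0.76, 0.0935).

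The 13 genes that insulin induces in fat or liver had the highest share of calls with cold among the 8 lists. Cold raised 7 of them in Cre- and 6 in BATdKO (53.8% and 46.2%, beside 5.57% and 3.76% of all genes called higher), with medians of 0.78 and 0.22 beside -0.02 and 0.00 over all genes. In Cre- the values were 1.68 ± 0.21 for Hk2 (hexokinase), 1.39 ± 0.20 for Elovl6 (fatty acid elongase), 1.02 ± 0.12 for Me1 (malic enzyme), 0.93 ± 0.20 for Acaca (acetyl-CoA carboxylase), 0.88 ± 0.12 for Thrsp and 0.84 ± 0.15 for Fasn (fatty acid synthase). In BATdKO, Hk2 (1.49), Elovl6 (1.34), Lpl (1.17), Thrsp (0.60), Acly (0.56) and Me1 (0.54) rose. At 8°C the list split between genotypes: Acaca (-0.91 ± 0.20, edgeR adjusted p = 0.0153; 537 ± 78.3 against 286 ± 74.4 CPM) and Fasn (-0.60 ± 0.15, adjusted p = 0.0511) were lower under the BATdKO label, and Lpl, the lipase that takes up fatty acids from lipoproteins, was higher (1.01 ± 0.25, adjusted p = 0.0434; 704 ± 112 against 1420 ± 391 CPM). Many of these genes are used by hepatocytes as well as fat cells. Over the same groups the hepatocyte sums overlapped. Brown adipocyte sums in Cre-, which include the cold-induced Ucp1, were 740 to 2342 CPM at 30°C without m6 and 2765 to 5140 CPM at 8°C. Endothelial sums in Cre- did not overlap either. With the adipocyte covariate, cold in Cre- gave 0.94 for Acaca, 0.72 for Acly and 1.26 for Elovl6 (edgeR adjusted p = 0.00281, 0.0105 and 7.26e-06). The part of these cell types in the cold values was not tested beyond this covariate.

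**Figure D5:**
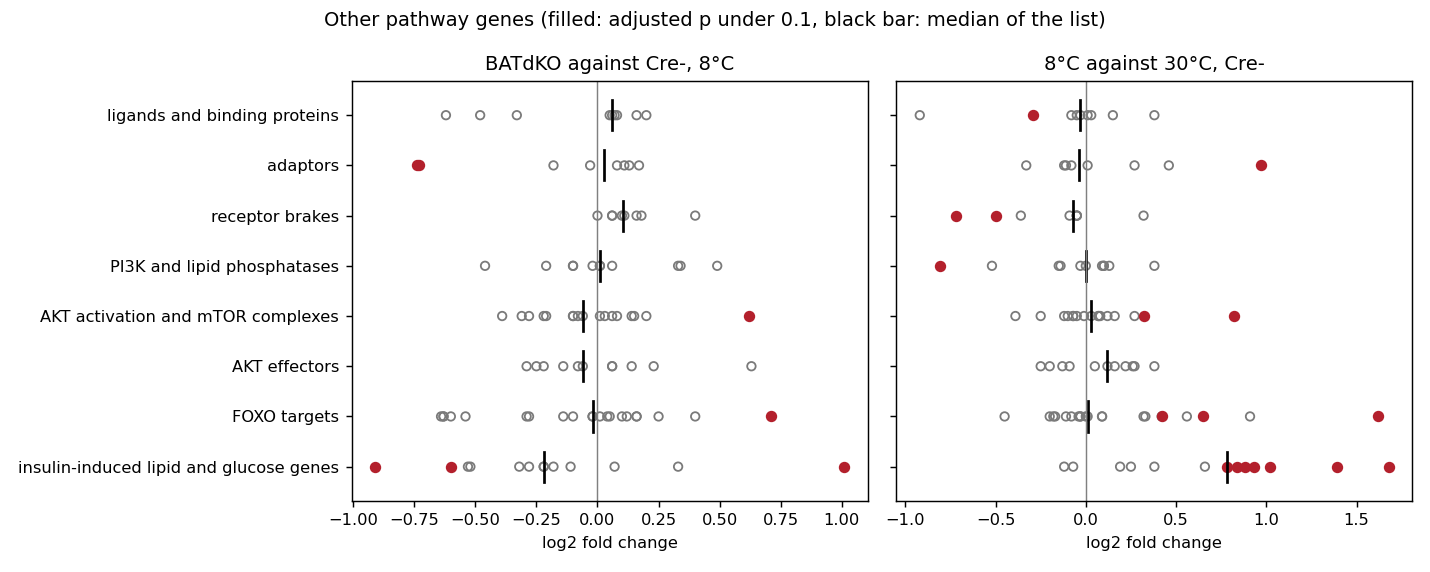
Log2 fold change (horizontal axes) of each tested gene in the 8 pathway lists (rows), between genotypes at 8°C and with cold in Cre-, with filled points at an adjusted p under 0.1 and a black bar at the list median. Between genotypes the medians lie within -0.22 to 0.11, and with cold the insulin-induced genes have a median of 0.78.

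Genes whose pattern was most like that of Irs2 were found by Pearson's r of log2 CPM over the 24 libraries, among 6111 genes with a mean of at least 10 CPM. The 5 highest were Gngt2 (0.87), Socs2 (0.82), Elmod2 (0.82), Ivns1abp (0.81) and St3gal6 (0.80). They were chosen on the libraries that set the differences of Irs2, so their own differences between the groups are not given. Among the insulin signalling genes, Foxo1 (0.71, rank 29) and Insr (0.64, rank 52) were nearest to Irs2. With group means removed, Insr was at 0.56 (rank 71) and Foxo1 at 0.26 (rank 1333), so the likeness of Foxo1 rested largely on differences between the groups. After group means were removed, the 5 nearest were Ppargc1a (0.76), the coactivator of brown fat genes, U2surp (0.72), Cped1 (0.71), Tbl1x (0.70) and Wwtr1 (0.70). Tbl1x is a targeted gene of the study. The m6 libraries at 30°C, whose labels are in doubt, lay apart from their groups in both genes. Irs2 was 29.1 CPM in m6 of Cre- and 20.9 CPM in m6 of BATdKO (group medians 21.2 and 26.2 CPM). Tbl1x was 53.5 and 39.7 CPM (medians 39.9 and 55.1 CPM). The r values are not given without this pair, and its part in them was not tested. The libraries share depth, tissue composition and scaling, and the r values are descriptions.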

How the data were processed

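The authors deposited raw counts per gene, without normalization, for the 24 libraries. Per their methods, forward reads of a 3′ tag kit were trimmed with BBDuk, aligned to GRCm38 with STAR and summed per gene with Rsubread. The annotation release, the strand setting and the rule for low genes are not given in the sources used here. The authors removed outliers from their own analysis, and all 24 libraries were used here.

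Counts were fitted in R 4.3.3 with edgeR 4.0.16 (limma 3.58.1): TMM scaling, filterByExpr on the 4 groups (12485 genes kept, 130 removed) and a quasi-likelihood fit of 4 group means. Contrasts were genotype at each temperature, cold in each genotype and their interaction. P-values were adjusted by Benjamini-Hochberg over all tested genes, with a threshold of 0.1, as in the study's methods. Each standard error is the absolute log2 fold change over the square root of F. CPM used TMM library sizes, and log2 CPM a prior count of 2. Single values of Irs2 were also compared by exact two-sided permutation tests, 6 mice against 6. Replicates are separate mice. Mice are called m1 to m6 in accession order, a name only.

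The members, lists and tests were chosen with earlier results of these data known. From the lists, every gene past the threshold was eligible, up to 6 per list and comparison by p, and likeness to Irs2 named the 5 genes with the highest r. Positions are from GENCODE vM21 (GRCm38) and promoters from RefSeq (GRCm38.p6). Fits were tested on simulated data. Alternatives were DESeq2 1.42.0, RLE, total counts, no filter, a mean count of at least 10, robust dispersion, only the groups compared and each library left out. Leaving out both m6 libraries at 30°C and an adipocyte covariate (log2 of the summed CPM of Adipoq, Fabp4 and Plin1) were added after the data had been seen. In that sum Fabp4 spanned 125 to 2509 CPM, beside 80.4 to 398 CPM for Adipoq and 58.25 to 266 CPM for Plin1. The covariate thus follows Fabp4 more than the other genes.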

Additional observations from a re-analysis of the deposited data

Results flagged for a closer look

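Among 36 sets of 6 values (9 genes in 4 groups), 4 had a library far from the other 5 by Dixon's test, where chance flags about 1 in 20. Irs2 was 49.2 CPM in mouse m1 of BATdKO at 8°C, against 28.2 to 34.2 CPM in the other 5. Akt1 was 40.6 CPM in m6 of Cre- at 30°C, against 12.2 to 22.7 CPM, and 26.7 CPM in m5 of BATdKO at 8°C, against 44.6 to 53.2 CPM. Akt2 was 146 CPM in m6 of Cre- at 30°C, against 103 to 118 CPM.

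The cold response differed between genotypes, at an unadjusted edgeR p under 0.05, for Irs2 (interaction 0.82, adjusted p = 0.105) and Foxo1 (0.34, adjusted p = 0.495). Neither passed the adjusted threshold.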

How the results depend on the processing

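At 8°C the genotype calls of Irs2 and Foxo1 held in every alternative and with every library left out (Irs2 0.88 to 1.05), and the number of the 9 genes called there was 2 to 3. Irs2 at 30°C was never called (0.11 to 0.26 with single libraries left out, 0.31 without both m6 libraries and 0.04 with the adipocyte covariate). With cold in Cre-, Irs2 was -0.49 to -0.34 and 0 to 2 genes were called with single libraries left out, and 5 with total counts. With cold in BATdKO, Irs2 was 0.28 to 0.44 and 0 to 2 genes were called with single libraries left out. Irs2 lost its call there with total counts (0.20), with only the groups compared (0.38, 0 genes called) and without both m6 libraries at 30°C (0.32, 0 genes called), and the adipocyte covariate called 2. The interaction of Irs2 was 0.71 to 0.88 with single libraries left out (0 to 1 gene called) and passed with RLE (0.82), total counts (0.80), DESeq2 (0.82), no filter (0.82), robust dispersion (0.82), each with 1 gene called, and the adipocyte covariate (0.86, 2 genes called). Without both m6 libraries, 1 of the 9 genes, Akt1, was called between genotypes at 30°C, where 0 were otherwise.

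Total counts moved the median of all genes by -0.18 with cold in Cre- and -0.19 in BATdKO, so values under that scaling are relative to it. It reversed the sign of Akt2 at 8°C between genotypes (-0.04), Pik3r1 at 30°C (-0.03), Insr (-0.12), Akt1 (-0.03) and Akt2 (-0.05) with cold in Cre-, and Insr (-0.05), Pik3ca (-0.06), Akt2 (-0.16) and Foxo3 (-0.18) with cold in BATdKO. No filter reversed Foxo3 with cold in BATdKO (-0.00). Leaving out both m6 libraries reversed Pik3r1 (-0.14) and Pik3ca (0.03) between genotypes at 30°C, Akt2 with cold in BATdKO (-0.02) and the interaction of Pik3r1 (0.10). The adipocyte covariate reversed Pik3r1 (0.03) and Akt2 (-0.03) at 8°C, and Akt1 at 30°C (-0.30) and with cold in Cre- (-0.14). None of these was called in either fit. Single libraries reversed Pik3r1 (-0.08 to 0.00 at 8°C, -0.09 to 0.07 at 30°C, -0.11 to 0.05 for the interaction), Akt2 (-0.02 to 0.07 at 8°C, -0.02 to 0.05 with cold in BATdKO), Pik3ca (-0.10 to 0.02 at 30°C), Akt1 (-0.01 to 0.43 with cold in Cre-), Foxo3 (-0.03 to 0.05 with cold in BATdKO) and Igf1r (-0.07 to 0.15 for the interaction). The causes were not tested. Of the 36 calls in the pathway lists, single libraries ended Igfals (18 libraries), Bnip3 (11), Sesn1 (10), Acly in BATdKO (9), G6pc (8), Enpp1 and Foxo4 (7 each), Phlpp1 (6), Fasn and Gab2 at 8°C (5 each), Bcl6 with cold (4), Pik3cd (3) and Lpl at 8°C (2).

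Over all genes, calls between genotypes at 8°C went from 227 to 477 (only the groups compared), 734 (covariate) and 138 to 276 (single libraries), and at 30°C from 0 to 92 (DESeq2), 500 (without both m6 libraries), 811 (covariate) and 0 to 369. Cold in Cre- went from 1143 to 3259 with total counts (60.8% to 13.3% higher), and cold in BATdKO from 883 to 2812 (53.2% to 9.07% higher) and 1361 (covariate), with 574 to 1069 for single libraries. The interaction went from 12 to between 21 and 78 with total counts (27), DESeq2 (51), robust dispersion (21), without both m6 libraries (44) and the covariate (78), and to 7 to 37 with single libraries. Between genotypes at 8°C total counts also took the share called higher from 38.3% to 22.6%. No paired analysis was possible because replicate numbers follow accession order and pair no mice. Shares of related genes moved by less than 1 SD when single libraries were left out. The shallowest library, with 6 counts of Igf1r, limits small differences of that gene.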

Other observations

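Apart from insulin signalling, the targeted gene Tbl1x was 53.5 CPM in m6 of Cre- at 30°C and 39.7 CPM in m6 of BATdKO at 30°C, beside group medians of 39.9 and 55.1 CPM. Ucp1 in the same pair of libraries was 548 and 84.7 CPM, beside medians of 130 and 314 CPM.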
